A study of Rattus norvegicus with 9 samples.

Results

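The myelin sheath genes described here are Pmp22, Mbp, Mal, Mag, Prx, Drp2, Cnp and Egr2. Pmp22, Mbp, Mal, Mag, Prx and Drp2 encode structural proteins of the sheath or proteins that fasten it to the axon or to the basal lamina. Cnp encodes an enzyme of the sheath's cytoplasm, and Egr2 the transcription factor that turns the others on. The 8 genes were chosen by gene symbol, with earlier results of these data known. All 8 symbols were found among the 21486 genes of the deposited table, and all 8 passed the filter on low counts that left 15659 genes for testing. Rats of a strain, sex and age that the labels do not give had a gap of 2 cm cut in the sciatic nerve and bridged with a synthetic conduit, and on day 14 the tissue that had grown inside the conduit was taken for poly(A) RNA sequencing. The Hollow group had an empty tube. The AFMC group had a tube whose lumen was filled with aligned fibers and longitudinal microchannels. The AFMC-AA-SP group had the same filled tube, with spermidine (SP) adsorbed on the fiber surface and L-ascorbic acid (AA) held inside the fibers. Each group had 3 libraries, and all 3 groups share the injury, the gap and the time of collection. No uninjured nerve was analysed here. The labels do not say how many animals stand behind a library, so the p-values below measure only the spread between these libraries.

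In peripheral nerve, myelin is made by Schwann cells, which wrap their plasma membrane around an axon and compact the turns by squeezing out the cytoplasm. After injury, Schwann cells beyond the cut switch off their myelin genes and enter a repair state, and they switch the myelin genes on again once they meet and sort regrowing axons. Sox10 marks the Schwann cell lineage and works with Pou3f1 to switch on Egr2, and Egr2 together with Sox10 drives the genes of the sheath, as worked out in mice and rats. The series text asks what the internal structure of the conduit does (AFMC against Hollow) and what the added molecules do (AFMC-AA-SP against AFMC).

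Promoter sequences of 3 of the genes are shown because they hold, between them, the letters searched for here. These were a SOX core (ACAAAG), an EGR core (GTGGGNG) and the CArG box bound by serum response factor, each on both strands. RefSeq promoters of the GRCr8 build, each of 300 bases that run across a transcription start, were at hand for 8 of 8 genes, with 10 promoters in all because Mbp and Drp2 have 2 each. Capitals mark the matches. Promoter positions are those of GRCr8. They are not to be compared with the gene positions given below, which are as deposited, on a build that the labels do not give. The Mag promoter, at chr1:95290995-95291294 on the minus strand, holds a SOX core and an EGR core, the Cnp promoter, at chr10:86011254-86011553 on the plus strand, holds a SOX core, and the Egr2 promoter, at chr20:21054392-21054691 on the minus strand, holds a CArG box.
Mag: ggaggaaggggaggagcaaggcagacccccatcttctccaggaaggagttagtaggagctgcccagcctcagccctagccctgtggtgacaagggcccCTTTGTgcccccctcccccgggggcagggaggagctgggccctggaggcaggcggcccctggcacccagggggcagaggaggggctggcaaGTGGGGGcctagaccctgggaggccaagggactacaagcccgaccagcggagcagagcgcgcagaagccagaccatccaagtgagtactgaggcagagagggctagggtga
Cnp: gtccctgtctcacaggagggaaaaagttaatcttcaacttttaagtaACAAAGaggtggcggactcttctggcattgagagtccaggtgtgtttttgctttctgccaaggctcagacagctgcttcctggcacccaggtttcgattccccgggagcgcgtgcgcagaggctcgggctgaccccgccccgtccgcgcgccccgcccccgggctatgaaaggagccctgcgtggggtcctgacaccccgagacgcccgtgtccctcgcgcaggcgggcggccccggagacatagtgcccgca
Egr2: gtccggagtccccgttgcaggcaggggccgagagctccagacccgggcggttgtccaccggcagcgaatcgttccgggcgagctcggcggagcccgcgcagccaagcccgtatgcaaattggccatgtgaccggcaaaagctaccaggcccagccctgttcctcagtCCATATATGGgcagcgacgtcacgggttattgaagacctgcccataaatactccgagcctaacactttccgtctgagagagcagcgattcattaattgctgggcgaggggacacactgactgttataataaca
Of the 10 promoters, 3 held the SOX core, 4 held the EGR core and 1 held the CArG box. Over all 33469 promoters of the same length, the shares were 18.8% for the SOX core, 28.8% for the EGR core and 1.64% for the CArG box. The SOX core stood in the promoters of Mag and Cnp and in the second promoter of Mbp. The EGR core stood in those of Mag and Prx and in the second promoters of Mbp and Drp2. The promoters of Pmp22 and Mal and the first promoters of Mbp and Drp2 held none of these motifs. A match describes the letters in this window and is not a bound site.

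The 9 libraries held from 18314489 to 26074134 counts each, and no 2 libraries held identical values. AFMC replicate 3 stood apart from the others. It lay at -72.3 on the first principal component, which carried 32.9% of the variance, while the other 8 libraries lay between -9.93 and 23.5. The summed level of 10 T, B and plasma cell markers was 1270.1 CPM (counts scaled to library size by TMM) in AFMC replicate 3 and between 71.4 and 175 CPM in the other 8. That of 9 neutrophil markers was 594 CPM there and between 39.2 and 122 CPM elsewhere. Differences of the myelin genes and of the marker lists that move by over 1.5 times without this library are also given without it. The rank correlation of a gene's deviation in a library with gene length ran from -0.307 to -0.0344 in the AFMC libraries and from 0.0140 to 0.248 in the other 6. In a fit with a gene length offset, the direction held for each of the 8 genes in each comparison. Log2 fold changes below are from the fit without that offset.

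Per unit of transcript length, the 8 genes ran from among the most abundant transcripts of the tissue to its lower ranks. Levels between genes are compared as FPKM (fragments scaled to transcript length and to depth), given as group mean ± SD over 3 libraries. Pmp22 was the highest member in every group, at 316 ± 77.3 FPKM in Hollow, where it ranked 118 of the 15659 genes tested. Cnp and Mbp followed at 119 ± 4.21 and 104 ± 28.0 FPKM in Hollow, and these neighbours did not differ beyond their spread. Egr2 at 33.7 ± 5.95 FPKM and Prx at 33.6 ± 9.34 FPKM were also level with each other. Mal was lower, at 17.7 ± 5.39 FPKM. Mag at 6.57 ± 1.74 FPKM and Drp2 at 3.62 ± 0.912 FPKM closed the order, and Drp2 ranked 9991. The order of the group means was the same in AFMC, from Pmp22 at 226 ± 55.7 FPKM to Drp2 at 2.05 ± 0.703 FPKM, and in AFMC-AA-SP, from 253 ± 23.9 to 3.41 ± 0.221 FPKM.

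Compact myelin is represented by Pmp22, Mbp and Mal. Pmp22 encodes a tetraspan membrane protein whose gene dosage is altered in inherited neuropathies of people, and it lies on chromosome 10 at 47795709-47825714, plus strand, in the deposited table. Its level was 564, 748 and 451 CPM in Hollow replicates 1, 2 and 3, then 497, 494 and 317 CPM in the AFMC replicates and 413, 483 and 507 CPM in the AFMC-AA-SP replicates. Hollow replicate 2 was the highest library and AFMC replicate 3 the lowest, and all 3 groups overlapped. The group means were 587 ± 150.0, 436 ± 103 and 468 ± 48.8 CPM (SD, n = 3). The log2 fold change was -0.43 ± 0.22 (SE) for AFMC against Hollow, with an adjusted p of 0.306, and 0.10 ± 0.22 for AFMC-AA-SP against AFMC, with an adjusted p of 0.843 (edgeR quasi-likelihood test, Benjamini-Hochberg over 15659 genes, as for every adjusted p below unless DESeq2 is named). The 95% interval for AFMC-AA-SP against AFMC ran from -0.39 to 0.59. The difference of AFMC from Hollow came to -0.21 if Hollow replicate 2 was left out and to -0.25 if AFMC replicate 3 was.

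Mbp encodes the basic protein that holds the cytoplasmic faces of compact myelin together (chromosome 18, 75855878-75966404, plus strand). Its level was 330.4, 467 and 272 CPM in Hollow, 265, 280.3 and 189 CPM in AFMC, and 260.5, 301 and 289.7 CPM in AFMC-AA-SP. The pattern across libraries was that of Pmp22, with the top value in Hollow replicate 2 and the bottom value in AFMC replicate 3. The means were 357 ± 100.4, 245 ± 48.8 and 284 ± 21.0 CPM. AFMC against Hollow gave -0.54 ± 0.21 on the log2 scale, with a 95% interval from -1.01 to -0.08 and an adjusted p of 0.198. Without Hollow replicate 2 it was -0.29. AFMC-AA-SP against AFMC gave 0.21 ± 0.21, with an adjusted p of 0.615.

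Mal, a small membrane protein of lipid rafts that takes part in sorting cargo to the myelin membrane (chromosome 3, 114864378-114888136, minus strand), was at 40.2, 52.0 and 27.0 CPM in Hollow, 25.7, 34.2 and 24.1 CPM in AFMC, and 29.2, 37.2 and 38.5 CPM in AFMC-AA-SP. Hollow replicate 3 lay below AFMC replicate 2, so those groups overlapped. The means were 39.7 ± 12.5, 28.0 ± 5.41 and 35 ± 5.03 CPM. The log2 difference of AFMC from Hollow was -0.50 ± 0.23, with an adjusted p of 0.269, and that of AFMC-AA-SP from AFMC was 0.32 ± 0.23, with an adjusted p of 0.496. The first of these was -0.26 without Hollow replicate 2.

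**Figure D1:**
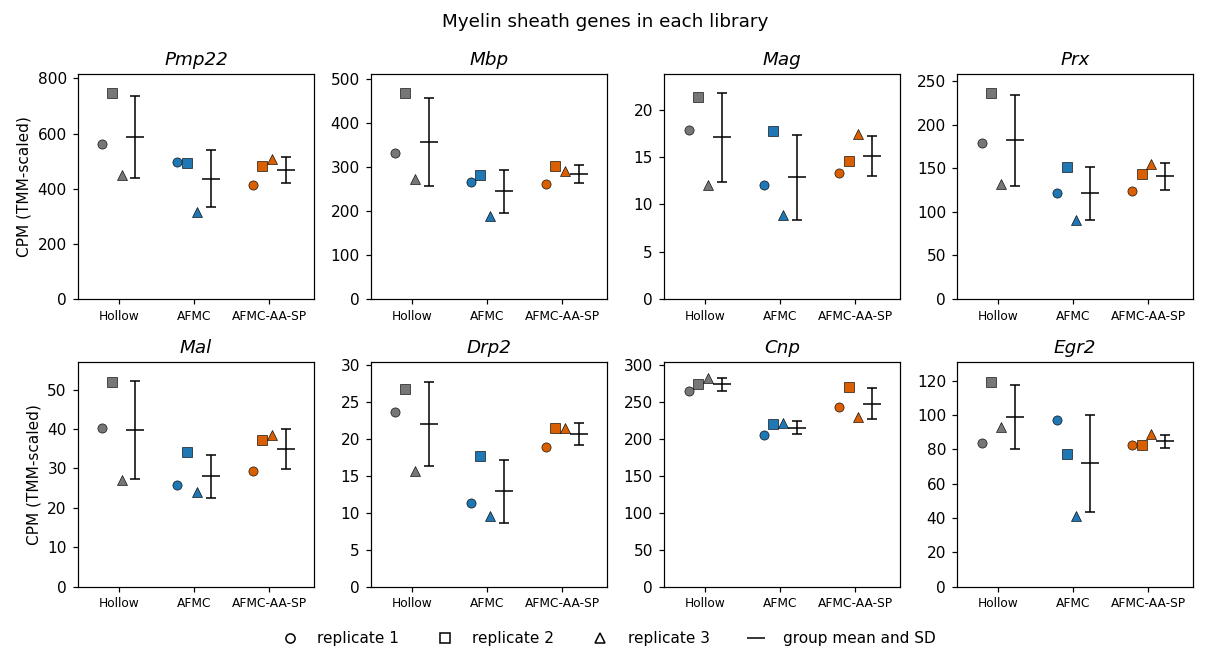
Level of each myelin sheath gene in each library, in TMM-scaled CPM on linear axes that start at 0, by conduit group; symbols mark the replicate and the bars the group mean and SD (n = 3). Hollow replicate 2 is the highest library for 7 of 8 genes and AFMC replicate 3 the lowest for 7 of 8, while Cnp keeps narrow groups with AFMC at 205 to 222 CPM below Hollow at 265 to 283 CPM.

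Mag, Prx and Drp2 act at the surfaces of the sheath. Mag, an adhesion protein of the innermost wrap that faces the axon (chromosome 1, 86148228-86163656, minus strand), has a promoter, shown above, with both a SOX and an EGR core, as has the second promoter of Mbp. It was at 17.9, 21.3 and 12.1 CPM in Hollow, 12.1, 17.7 and 8.85 CPM in AFMC, and 13.3, 14.6 and 17.4 CPM in AFMC-AA-SP. The groups overlapped widely, and the AFMC-AA-SP libraries all lay inside the range of the Hollow libraries. The means were 17.1 ± 4.68, 12.9 ± 4.50 and 15.1 ± 2.11 CPM. The log2 fold change was -0.41 ± 0.27 for AFMC against Hollow (adjusted p = 0.432) and 0.23 ± 0.27 for AFMC-AA-SP against AFMC (adjusted p = 0.688). The difference of AFMC from Hollow came to -0.20 without AFMC replicate 3 and to -0.22 without Hollow replicate 2, and was -0.71 without AFMC replicate 2.

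Prx encodes periaxin, a scaffold in the outer Schwann cell membrane that links the sheath to the basal lamina through Drp2 and dystroglycan, as shown in mice (chromosome 1, 82786815-82807407, plus strand). Its level was 178, 236 and 131 CPM in Hollow, 121, 152 and 90.1 CPM in AFMC, and 124, 143 and 155 CPM in AFMC-AA-SP. Hollow replicate 2 again stood highest and AFMC replicate 3 lowest. The means were 182 ± 52.4, 121 ± 30.7 and 141 ± 15.5 CPM. AFMC against Hollow gave -0.59 ± 0.23, with a 95% interval from -1.11 to -0.07 and an adjusted p of 0.211, and AFMC-AA-SP against AFMC gave 0.22 ± 0.23, with an adjusted p of 0.657. The first difference was -0.35 without Hollow replicate 2.

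Drp2, the dystrophin-related partner of periaxin (chromosome X, 97607719-97655684, plus strand), had the largest fold difference among the 8 genes. Drp2 also had the greatest transcript length of the 8, at 6144 bp. Its direction held in the fit with a gene length offset, and the size of its difference in that fit is not given here. It was at 23.7, 26.7 and 15.6 CPM in Hollow, 11.4, 17.7 and 9.64 CPM in AFMC, and 19.0, 21.5 and 21.5 CPM in AFMC-AA-SP. All 3 AFMC-AA-SP libraries lay above all 3 AFMC libraries, whereas Hollow replicate 3 lay below AFMC replicate 2. The means were 22 ± 5.71, 12.9 ± 4.23 and 20.6 ± 1.45 CPM, so that the fitted AFMC level was 0.586 times that of Hollow and the AFMC-AA-SP level 1.60 times that of AFMC. The log2 fold change of AFMC against Hollow was -0.77 ± 0.25, with a 95% interval from -1.33 to -0.21 and an adjusted p of 0.152. By DESeq2 the same comparison had an adjusted p of 0.0446, under the threshold of 0.05. AFMC-AA-SP against AFMC gave 0.68 ± 0.25, with an interval from 0.12 to 1.24 and an adjusted p of 0.227, and 0.113 by DESeq2. Without AFMC replicate 3 these differences were -0.60 and 0.51, and without AFMC replicate 2 they were -1.06, with an adjusted p of 0.0351, and 0.97.

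Cnp encodes CNPase, an enzyme of the cytoplasm-filled parts of the sheath that keeps its channels open, as shown in mice (chromosome 10, 85511160-85517720, plus strand). Its level was 265, 275 and 283 CPM in Hollow, 205, 220.2 and 222 CPM in AFMC, and 243, 271 and 229.7 CPM in AFMC-AA-SP. It was the only one of the 8 genes for which no AFMC library overlapped a library of either other group. The means were 274 ± 9.03, 216 ± 9.13 and 248 ± 21.2 CPM. The log2 fold change of AFMC against Hollow was -0.35 ± 0.08, the smallest of the 8 in size, with a 95% interval from -0.53 to -0.16, an adjusted p of 0.115 and an adjusted p of 0.00458 by DESeq2. It stayed between -0.37 and -0.31 whichever library of these groups was left out. AFMC-AA-SP against AFMC gave 0.20 ± 0.08, with an interval from 0.02 to 0.38 and an adjusted p of 0.254, and 0.181 by DESeq2.

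Egr2, the zinc finger transcription factor that myelination depends on in mice (chromosome 20, 21051277-21055562, minus strand), was at 83.8, 119 and 93.0 CPM in Hollow, 97.2, 77.3 and 41.3 CPM in AFMC, and 82.6, 82.4 and 88.7 CPM in AFMC-AA-SP. AFMC replicate 3 was far below the other 8 libraries, and AFMC replicate 1 lay above all 3 AFMC-AA-SP libraries. The means were 98.7 ± 18.5, 71.9 ± 28.3 and 84.6 ± 3.57 CPM. The log2 fold change was -0.46 ± 0.26 for AFMC against Hollow (adjusted p = 0.368) and 0.23 ± 0.26 for AFMC-AA-SP against AFMC (adjusted p = 0.676). Without AFMC replicate 3 these values were -0.18 and -0.05, and the first was -0.29 with Hollow replicate 2 left out and -0.74 with AFMC replicate 1 left out.

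The structural question, AFMC against Hollow, found all 8 genes lower in mean with fibers and microchannels, by a median of -0.48 on the log2 scale, where the median over all genes tested was 0.01. The fitted ratio ran from 0.586 for Drp2 to 0.786 for Cnp. None of the 8 passed edgeR's adjusted threshold of 0.05, and neither did any other gene (0.00% of 15659, smallest adjusted p 0.102). At an unadjusted p under 0.05, 4 of the 8 were lower, namely Mbp, Prx, Cnp and Drp2, against 11.1% of all genes, and 3055 genes in all were below that level. DESeq2 called 2 of the 8 lower, Cnp and Drp2, against 4.35% of the 14113 genes it tested, and 1028 genes in both directions. Of the 8, 1 had AFMC libraries all below the Hollow libraries, against 12.3% of all genes, so that count is near the background. The median of the 8 was -0.38 without AFMC replicate 3 and -0.29 without Hollow replicate 2, and -0.66 without AFMC replicate 2. In bulk tissue, fewer Schwann cells and less myelin RNA per Schwann cell cannot be told apart.

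The question of the added molecules, AFMC-AA-SP against AFMC, found all 8 genes higher in mean in the loaded conduit, by a median of 0.22 on the log2 scale against -0.01 over all genes. None of the 8 was called by edgeR (0.00% of all genes, smallest adjusted p 0.0553) or by DESeq2, which called 3.23% of 14414 genes higher and 594 in both directions. At an unadjusted p under 0.05, 2 were higher, Cnp and Drp2, against 10.1% of all genes, and 2708 genes in all were below that level. The same 2 genes had no overlap between the groups, against 12.5% of all genes. The comparison used the same AFMC libraries as the one before it, so a low library there moves both. Without AFMC replicate 3 the median of the 8 was 0.05, with Pmp22 at -0.08, Mag at 0.02, Prx at 0.04, Mbp at 0.06 and Egr2 at -0.05, while Mal was at 0.23, Cnp at 0.22 and Drp2 at 0.51.

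AFMC-AA-SP against Hollow, which the series text does not name, found the 8 genes lower in mean with a median of -0.20, against 0.00 over all genes. The values ran from -0.37 ± 0.23 for Prx, with a 95% interval from -0.89 to 0.15, to -0.09 ± 0.24 for Drp2, with an interval from -0.64 to 0.46. The adjusted p was 0.9999 for each of the 8. None of the 8 had an unadjusted p under 0.05, against 1.55% of all genes lower, and 507 genes in all were below that level. None was called by DESeq2 (0.00640% of 15628 genes lower, and 8 in both directions) or by edgeR (0.00% of all genes), and all 8 overlapped, where 4.96% of all genes lay lower with no overlap. The median was -0.07 without Hollow replicate 2. Mag at 0.02, Mal at 0.06 and Drp2 at 0.08 were then above the Hollow mean.

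**Figure D2:**
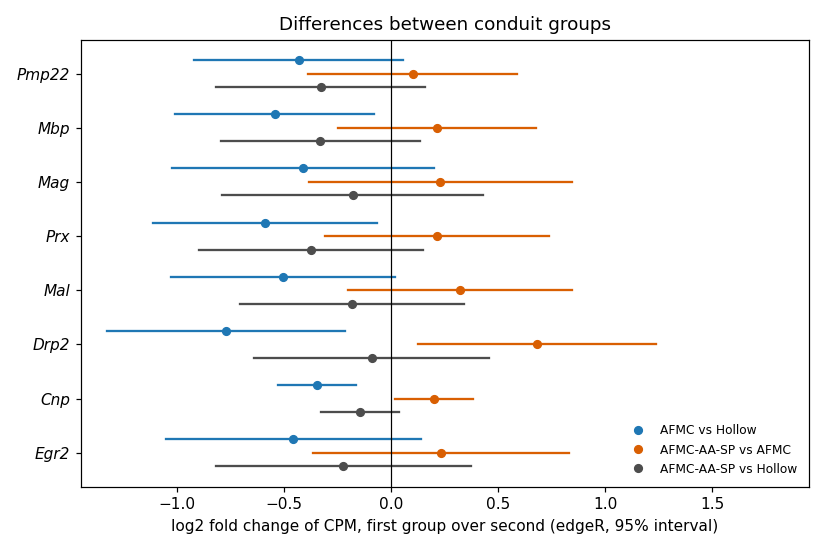
Log2 fold change of each myelin sheath gene in the 3 comparisons, with 95% intervals from the edgeR quasi-likelihood fit; the vertical line is no change. All 8 estimates lie below 0 for AFMC against Hollow and above 0 for AFMC-AA-SP against AFMC, and the intervals that leave out 0 are those of Mbp, Prx, Cnp and Drp2 in the first comparison and of Cnp and Drp2 in the second.

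The libraries varied along a shared pattern within groups as well as between them. For 7 of the 8 genes the highest library was Hollow replicate 2 and the lowest AFMC replicate 3, with a fold between them from 2.16 for Mal to 2.89 for Egr2. Cnp spanned 1.38-fold, with its extremes in Hollow replicate 3 and AFMC replicate 1. Over the 9 libraries, which share their scaling and their groups, Pearson's r of a gene's log2 CPM with the mean of the other 7 genes was 0.981 for Prx, 0.970 for Mbp, 0.934 for Pmp22, 0.922 for Mag, 0.911 for Mal and 0.888 for Drp2. Egr2 followed less closely at 0.750, and Cnp least at 0.513. The ratio of Cnp to Mbp, both in FPKM, was 1.2, 0.878 and 1.56 in Hollow, 1.16, 1.17 and 1.75 with unloaded fibers and 1.39, 1.35 and 1.18 with loaded fibers. It was lowest in Hollow replicate 2 and highest in AFMC replicate 3, the libraries where Mbp itself was at its extremes.

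For most of the 8 genes, the AFMC-AA-SP libraries lay closest together. The coefficient of variation of CPM over 3 libraries was smallest in that group for 7 of the 8 genes, with a median of 9.49%, against 26.7% in Hollow and 24.5% in AFMC. Egr2 varied by 4.22% in AFMC-AA-SP, 18.7% in Hollow and 39.4% in AFMC. Cnp was the exception, at 3.29% in Hollow, 4.23% in AFMC and 8.55% in AFMC-AA-SP. The wider spreads of the other 7 genes in Hollow and AFMC include Hollow replicate 2 and AFMC replicate 3, their highest and lowest libraries. These 7 genes share a pattern across libraries and are not separate observations. The share of all genes with the smallest spread in AFMC-AA-SP is not given here. The difference in spread between groups was not tested.

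Among the other proteins and enzymes of the peripheral sheath, 20 of 20 listed genes were tested and all 20 were lower in mean in AFMC than in Hollow, with a median of -0.55, close to that of the 8. None passed the adjusted edgeR threshold. At an unadjusted p under 0.05, 8 were lower, against 11.1% of all genes, and DESeq2 called 5 lower, against 4.35%. The listed gene of smallest p was Fgd4, an exchange factor for the small GTPase Cdc42 that is mutated in a demyelinating neuropathy, at -0.82 ± 0.19 in AFMC against Hollow and 0.89 ± 0.19 in AFMC-AA-SP against AFMC, the order kept for the genes that follow. Sh3tc2, an endosomal protein of Schwann cells that is also mutated in such a neuropathy, gave -0.70 ± 0.16 and 0.41 ± 0.16. Pmp2, a fatty acid binding protein of myelin, gave -0.45 ± 0.31 and 0.24 ± 0.31, and -0.19 and -0.02 without AFMC replicate 3. Gjb1, the gap junction protein of non-compact myelin, was near the floor of detection at 2.27 CPM in Hollow and gave -0.57 ± 0.41 and 0.48 ± 0.41, the first being -0.10 without Hollow replicate 2. In AFMC-AA-SP against AFMC, 19 of the 20 were higher in mean, with a median of 0.28, 5 with an unadjusted p under 0.05 and 1, Fgd4, called by DESeq2. The shares of all genes higher were 10.1% and 3.23%. Without AFMC replicate 3 the medians of the 20 were -0.36 and 0.10, and without Hollow replicate 2 the first was -0.29.

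Of 22 transcription factors, receptors and signals that promote myelination, 19 were lower in mean in AFMC than in Hollow, with a median of -0.29. At an unadjusted p under 0.05, 10 were lower, against 11.1% of all genes, and 7 by DESeq2, against 4.35%. The list shares Sox10 and Erbb3 with the Schwann cell markers below. Sox10 was at 83.5 ± 1.07 CPM in Hollow, 56.8 ± 10.6 in AFMC and 77.9 ± 6.75 in AFMC-AA-SP, and gave -0.56 ± 0.13 and 0.46 ± 0.13. Adgrg6, an adhesion receptor that raises cAMP in Schwann cells, gave -0.53 ± 0.12 and 0.33 ± 0.12. Erbb3, the neuregulin receptor subunit, gave -0.55 ± 0.12 and 0.51 ± 0.12. Pou3f1, the factor that precedes Egr2, gave -0.20 ± 0.25 and 0.26 ± 0.25, and 0.02 and 0.04 without AFMC replicate 3. In the second comparison 18 of the 22 were higher in mean, with a median of 0.27, or 0.17 without AFMC replicate 3. Of these, 9 had an unadjusted p under 0.05 and 4 were called by DESeq2, against 10.1% and 3.23% of all genes.

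Genes that hold myelination back were mostly lower in mean in AFMC as well. Of 11 tested, 10 were lower in mean, with a median of -0.27. At an unadjusted p under 0.05, 3 were lower, against 11.1% of all genes, and 2 by DESeq2, against 4.35%. The pair called by DESeq2 was Sox2, which keeps Schwann cells immature, at -0.70 ± 0.12, and Dlg1, a scaffold that limits the thickness of myelin in mice, at -0.38 ± 0.08. Jun, the master regulator of the repair state, was at -0.12 ± 0.08, and Id2, an inhibitor of differentiation, at 0.17 ± 0.14. In AFMC-AA-SP against AFMC, 9 of the 11 were higher in mean, with a median of 0.27, and 2 had an unadjusted p under 0.05, against 10.1% of all genes. Sox2 there was 0.78 ± 0.12 and Jun 0.27 ± 0.08.

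**Figure D3:**
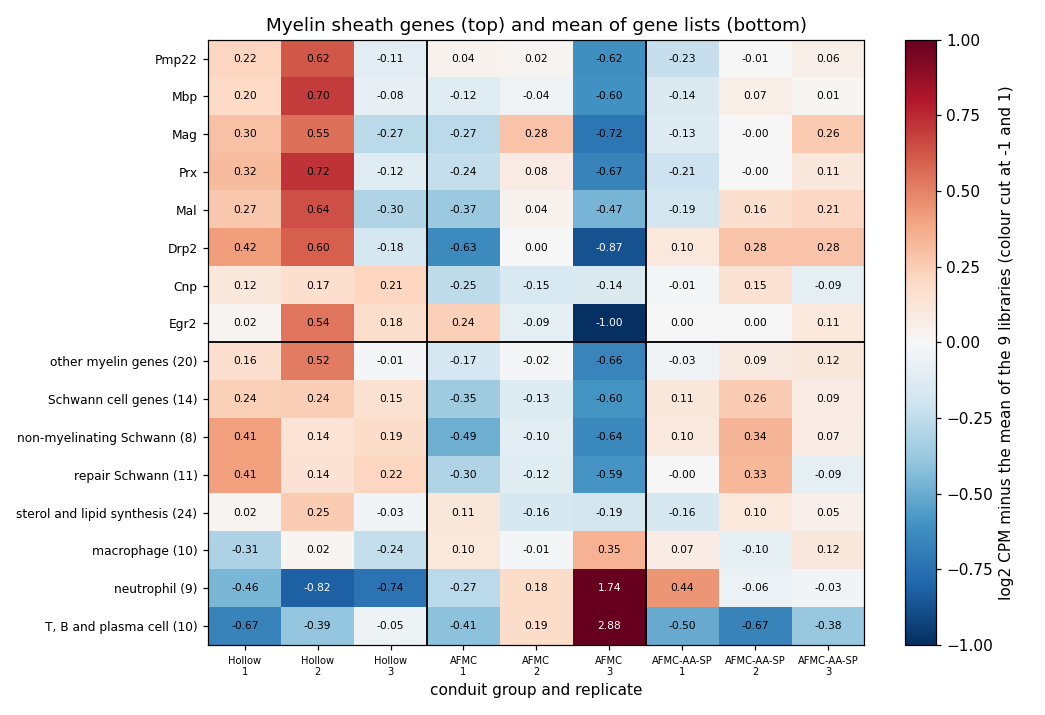
Log2 CPM of each myelin sheath gene (top) and mean over the tested genes of each list (bottom, number of genes in brackets), relative to the mean of the 9 libraries; the colour scale ends at -1 and 1 and the printed numbers are the values. AFMC replicate 3 is low for 7 of the myelin genes and for the Schwann cell lists and high for T, B and plasma cell and neutrophil genes, and Hollow replicate 2 is high for the myelin genes while its Schwann cell score of 0.24 equals that of Hollow replicate 1.

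Markers of the Schwann cell lineage, which include Scn7a and Ngfr of the non-myelinating list, were lowest in mean in AFMC, as the myelin genes were. All 14 tested were lower in mean in AFMC than in Hollow, with a median of -0.55, 13 with an unadjusted p under 0.05 and 6 by DESeq2, and for 12 of the 14 the groups did not overlap. Over all genes the shares lower by these 3 measures were 11.1%, 4.35% and 12.3%. All 14 were higher in mean in AFMC-AA-SP than in AFMC, with a median of 0.45, 9 with an unadjusted p under 0.05 and 6 by DESeq2, against 10.1% and 3.23% of all genes. Against Hollow, 8 of the 14 were lower and 6 higher in mean in AFMC-AA-SP, with a median of -0.06. Without AFMC replicate 3 the first and second medians were -0.46 and 0.35. Their summed level was 908 to 932 CPM in Hollow, 528 to 712 CPM in AFMC and 858 to 989.8 CPM in AFMC-AA-SP, whereas the summed level of the 8 myelin genes was 1285 to 1946 CPM, 902 to 1292 CPM and 1185 to 1354 CPM. The Schwann cell sums left a gap between AFMC and either other group, and the myelin sums of AFMC and Hollow overlapped. Scn7a, a sodium channel of non-myelinating Schwann cells, gave -0.93 ± 0.11 and 1.02 ± 0.11 in the first and second comparison, and Cdh19, a cadherin of the Schwann cell lineage, -0.96 ± 0.19 and 0.97 ± 0.19.

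Non-myelinating and repair-state markers were also lowest in mean in AFMC, all but Olig1 of the repair list. Of 8 non-myelinating markers, which share Scn7a and Ngfr with the list before, 8 were lower in mean in AFMC than in Hollow (median -0.60, 6 with an unadjusted p under 0.05) and 8 were higher in AFMC-AA-SP than in AFMC (median 0.47, 3 with an unadjusted p under 0.05). Chl1, an adhesion protein, gave -1.01 ± 0.18 and 1.10 ± 0.18, Ngfr, the low-affinity neurotrophin receptor, -0.56 ± 0.12 and 0.60 ± 0.12, and Ncam1 -0.44 ± 0.19 and 0.19 ± 0.19. Of 11 repair markers, which share Jun and Sox2 with the genes that hold myelination back and Gap43 with the non-myelinating markers, 11 were lower in mean in AFMC (median -0.70, 6 with an unadjusted p under 0.05) and 10 were higher in AFMC-AA-SP than in AFMC (median 0.40, 4 with an unadjusted p under 0.05). Over all genes, 11.1% were lower at that level in the first comparison and 10.1% higher in the second. In AFMC-AA-SP against Hollow, 5 of the 8 non-myelinating markers were lower and 3 higher (median -0.08), and 9 of the 11 repair markers were lower and 2 higher (median -0.17). Bdnf, a neurotrophin that repair cells secrete, gave -0.80 ± 0.15 and 0.46 ± 0.15.

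Set against the Schwann cell markers of the same library, the difference of the myelin genes between AFMC and Hollow was smaller than its standard error for 7 of the 8, all but Cnp. The measure was a gene's log2 CPM minus the mean log2 CPM of the 14 Schwann cell markers. These include the non-myelinating markers Scn7a and Ngfr, so the reference is not neutral to Schwann cell state. For Pmp22 it was 3.56, 3.96 and 3.32 in Hollow, 3.97, 3.74 and 3.56 with unloaded fibers and 3.24, 3.32 and 3.56 with loaded fibers. The AFMC and Hollow libraries overlapped for all 8 genes, whereas 67.4% of all genes did not overlap in one direction or the other on this measure, and the mean of the 8 differed by 0.06 ± 0.17 (SE, n = 3 against 3). That mean was 0.13 without AFMC replicate 3, 0.21 without Hollow replicate 2 and -0.07 without Hollow replicate 3, which turned its sign. The difference of AFMC from Hollow ran from -0.20 ± 0.24 for Drp2 to 0.23 ± 0.15 for Cnp.

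AFMC-AA-SP against AFMC gave a mean difference of -0.21 ± 0.10 on the same measure, the opposite sign to that in CPM. Pmp22 at -0.39 ± 0.15, Mbp at -0.28 ± 0.09 and Cnp at -0.31 ± 0.14 had AFMC-AA-SP libraries below AFMC libraries with no overlap, and the other 5 overlapped. That is 3 of 8 genes, below the 60.0% of all 15659 genes that lay lower with no overlap on this measure. The Schwann cell markers that it subtracts were themselves higher in mean in AFMC-AA-SP. For Pmp22 the gap between the nearest libraries of these groups was very small, since both rounded to 3.56. For Mbp the values were 2.57, 2.64 and 2.75 in AFMC-AA-SP and 3.06, 2.92 and 2.82 in AFMC. Drp2 alone was higher in AFMC-AA-SP, by 0.21 ± 0.15, with -1.20, -1.17 and -1.0 against -1.47, -1.06 and -1.46. With 3 libraries a group an exact permutation test cannot give a two-sided p below 0.1, so no p is given for these differences. With Sox10 alone as the reference, the mean differences were 0.06 for AFMC against Hollow and -0.16 for AFMC-AA-SP against AFMC, Pmp22 and Mbp still did not overlap in the second comparison, where 49.6% of all genes lay lower with no overlap, and Cnp did.

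**Figure D4:**
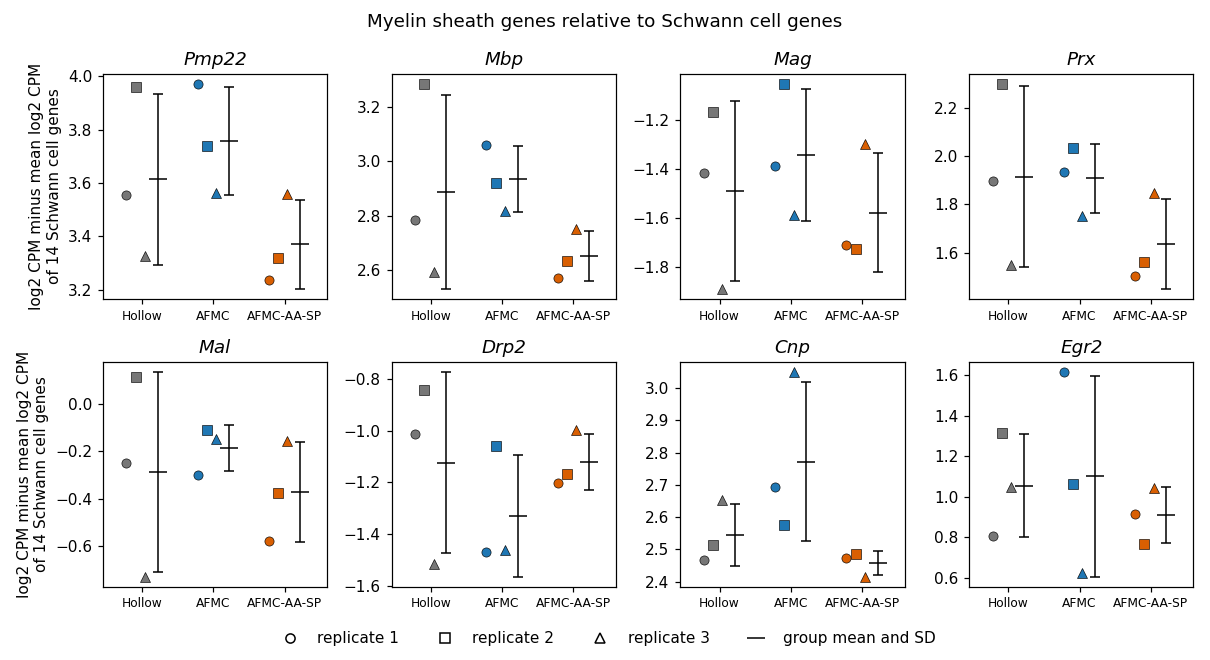
Log2 CPM of the myelin sheath genes relative to the mean log2 CPM of 14 Schwann cell markers in the same library, by conduit group, with group mean and SD (n = 3). The AFMC and Hollow libraries overlap, and the AFMC-AA-SP libraries lie below the AFMC libraries for Pmp22, Mbp and Cnp.

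Other gene groups were set beside these differences, and their part in the myelin results was not tested. Of 24 genes of sterol and fatty acid synthesis, which supply the lipid of myelin, 19 were lower in mean in AFMC than in Hollow with a median of -0.18 (-0.07 without Hollow replicate 2, -0.12 without AFMC replicate 3). At an unadjusted p under 0.05, 2 were lower, against 11.1% of all genes, namely Acaca at -0.25 ± 0.08 and Hmgcs1 at -0.45 ± 0.15. In AFMC-AA-SP against AFMC they were split, 12 lower and 12 higher, with a median of 0.01 that was -0.04 without AFMC replicate 3. Of 10 macrophage markers, 8 were higher in AFMC than in Hollow and 2 were lower (median 0.45, lowest value -0.82). Cd14 was at 0.85 ± 0.23 and Fcer1g at 0.63 ± 0.15. DESeq2 called 3 of the 10 higher and 1 lower. Over the 14113 genes it tested, it called 1028 in both directions, of which 614 were lower (4.35% of those tested). The summed level of the 10 was 4161 to 6703 CPM in Hollow, 5629 to 8354 CPM in AFMC and 5557 to 7596 CPM in AFMC-AA-SP. Of 9 neutrophil markers 7 were higher and 2 lower, with a median of 2.65 and a lowest value of -1.69. S100a8 was at 2.65 ± 0.75 and Cxcr2 at 2.83 ± 0.78. DESeq2 called 3 of the 9 higher and 1 lower, against the same counts over all genes. All 10 T, B and plasma cell markers were higher, with a median of 1.82, Jchain at 3.50 ± 1.02 and Cd2 at 1.37 ± 0.27. Both sets of differences were smaller without AFMC replicate 3. The neutrophil median was then 1.01, with S100a8 at 1.12 and Cxcr2 at 1.21, and the T, B and plasma cell median was 0.12, with 5 of the 10 markers higher, Jchain at 1.15 and Cd2 at 0.99. The summed T, B and plasma cell level reached 87.0 CPM at most in the Hollow libraries, and AFMC replicates 1 and 2 were at 88.4 and 175 CPM. For 1 of the 10 markers the groups did not overlap, and the share of all genes higher with no overlap is not given here. Cd14 was at 0.52 without that library. No defining marker of these 3 immune lists was at 0 in any library.

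Fibroblast and endothelial markers had medians near 0. Fibroblast markers had a median of 0.01 in AFMC against Hollow, with 4 of 8 lower, Dpt at 0.43 ± 0.18 and Col1a1 at 0.33 ± 0.18. Endothelial markers had a median of 0.09, or -0.03 without AFMC replicate 3, with Egfl7 at 0.32 ± 0.13 and Vwf at -0.23 ± 0.12. Of 4 perineurial markers 3 were lower, with a median of -0.32, Tjp1 at -0.39 ± 0.12 and Itgb4 at -0.34 ± 0.11. Fat and muscle genes differed between libraries. All 7 fat cell markers were lower in AFMC than in Hollow (median -1.15) and higher in AFMC-AA-SP than in AFMC (median 2.33). Adipoq was at -1.40 ± 0.29 and 2.48 ± 0.30, and Plin1 at -1.49 ± 0.37 and 2.57 ± 0.38. Without AFMC replicate 3 the medians were -0.77, with 6 of the 7 lower, and 2.03, with 6 of the 7 higher. The summed level of the 7 was highest in AFMC replicate 1, at 984 CPM. The summed level of 7 skeletal muscle markers ran from 127 to 2140 CPM with all 3 groups overlapping, and Mylpf and Tnnt3 gave 0.81 ± 1.07 and 0.50 ± 0.77 in AFMC against Hollow.

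The central nervous system makes several of the same myelin proteins in oligodendrocytes, and 4 of 6 markers of those cells were near 0. Mog, Opalin, Olig2 and Klk6 did not pass the filter, and their highest levels in any library were 0.268, 0.153, 0.542 and 0.345 CPM. Myrf and Sox8, which passed, reached 23.0 and 8.30 CPM in their highest libraries and gave -0.30 ± 0.13 and -0.43 ± 0.22 in AFMC against Hollow. Sox10, from the list of Schwann cell markers, was detected in every library of this tissue, which the labels call nerve.

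Genes outside the 8 whose level ran most closely with theirs were looked for among 10939 genes with a symbol and a mean of at least 5 CPM, by Pearson's r over the 9 libraries with the mean of the 8 genes' centred log2 CPM. Among the first 10 were Bcas1 at 0.989, Cldn19 at 0.988, Gjc3 at 0.985, Kcna1 at 0.979, Nid2 at 0.971, Spire1 at 0.968, Fxyd6 at 0.965, Fstl3 at 0.962 and Svip at 0.961. Cldn19 was also on the list of other sheath genes. Taken gene by gene, the closest was Pllp for Mag (0.982), Bcas1 for Mal (0.970), Ankrd50 for Drp2 (0.981), Rims2 for Egr2 (0.967) and Abcd3 for Cnp (0.948). The 9 points share their groups and their scaling, and these values are a description with no test.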

How the data were processed

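Per the labels, poly(A) RNA was made into strand-specific libraries. The authors deposited a gene table with raw counts and FPKM. The FPKM the authors deposited are counts divided by 1 length per gene and the library total, since the implied length was equal in all 9 libraries within 0.0445% for genes with many reads. For the aligner, the counting program and the genome build the entry is "not given in the sources used here", and gene positions are as deposited.

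The count model was edgeR 4.0.16 (R 4.3.3), with filterByExpr, TMM scaling and quasi-likelihood tests on all 9 libraries, 1 coefficient for each conduit group. Calls are two-sided, at a threshold of 0.05 on p adjusted by Benjamini and Hochberg's method over 15659 genes. CPM are TMM-scaled. The standard error is the size of the log2 fold change over the square root of F. The common biological coefficient of variation was 0.197. FPKM served for levels between genes and for limma.

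The members and the gene lists were chosen with earlier results of these data known. Of each list, the text names the 2 genes of smallest unadjusted p in AFMC against Hollow with a mean of at least 1 CPM, plus Pmp2, Gjb1, Sox10, Pou3f1, Adgrg6, Erbb3, Jun, Sox2, Id2, Ngfr and Ncam1, and the genes most alike. Some genes that this rule names are not reported here. Mobp, Lypd2, Krt19, Clcf1, Myh1, Fdps and Cd4, also listed, were not analysed here. Pax3 and Fabp7 did not pass the filter. Alternatives were DESeq2 1.42.0, limma 3.58.1 on log2(FPKM + 1) and log2(FPKM + 0.1), RLE factors, other filters, only the 2 groups compared, a gene length offset, a replicate block and leaving out each library. The steps were tested on simulated data.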

Additional observations from a re-analysis of the deposited data

How the results depend on the processing

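Under other scalings, filters, tools and fits, 238 values of the 8 genes kept their direction and their side of the threshold, and the other 2, Cnp and Drp2 by DESeq2, kept their direction and passed. Genes called, 0 in each comparison, became 1028 (AFMC against Hollow), 594 (AFMC-AA-SP against AFMC) and 8 (AFMC-AA-SP against Hollow) by DESeq2, with 2 of the 8 myelin genes in the first. They became 6 without a filter (AFMC-AA-SP against AFMC), 1 by limma on log2(FPKM + 1) (AFMC-AA-SP against Hollow) and 1 each on log2(FPKM + 0.1) in both comparisons with Hollow.

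Replicates with the same number did not deviate together in every pair (r from -0.00373 to 0.0802 for AFMC against Hollow, from -0.0163 to 0.140 for AFMC-AA-SP against AFMC), so the numbers were not taken as pairing. With a replicate block, 1 and 2 genes were called in these comparisons, and 1 and 2 again with a gene length offset added; no myelin gene was among the calls.

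Leaving out 1 library gave 0 to 894 genes called for AFMC against Hollow and 0 to 579 for AFMC-AA-SP against AFMC, the highest both without AFMC replicate 2, and 0 to 0 for AFMC-AA-SP against Hollow. Myelin genes called ranged from 0 to 1 in the first (Drp2). Medians ranged from -0.66 to -0.29, from 0.05 to 0.37 and from -0.38 to -0.07. In AFMC-AA-SP against AFMC, Pmp22 ranged from -0.083 (without AFMC replicate 3) to 0.21 and Egr2 from -0.045 (likewise) to 0.52. In AFMC-AA-SP against Hollow, Mag ranged from -0.37 to 0.016, Mal from -0.39 to 0.063 and Drp2 from -0.28 to 0.077, each turning sign without Hollow replicate 2. The mean level of the 8 relative to the Schwann cell markers, an alternative chosen after seeing the data, ranged from -0.067 (without Hollow replicate 3) to 0.21 for AFMC against Hollow, from -0.28 to -0.16 for AFMC-AA-SP against AFMC, and from -0.27 to 0.0027 (without Hollow replicate 2) for AFMC-AA-SP against Hollow. The cause was not tested.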
